A study of Mus musculus with 107 samples.

Results

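Unbound RNA of the mouse striatum was compared with unbound RNA of the mouse basal forebrain on Affymetrix expression arrays. In translating ribosome affinity purification (TRAP) the tagged ribosomes of a chosen cell type are pulled out of a tissue lysate, and the RNA that stays behind is the unbound fraction, taken here as RNA of the whole dissected tissue. Arrays were chosen by their labels alone: 6 of unbound striatum and 3 of unbound basal forebrain, 9 arrays in all, beside 98 other arrays of the series. All 9 came from BAC transgenic mice, in which a driver gene's regulatory sequence places the ribosome tag in 1 cell type. For the striatum, 2 arrays came from the Chat driver line DW167 (region given as corpus striatum), 2 from the Drd1 driver line CP73 and 2 from the Drd2 driver line CP101. All 3 basal forebrain arrays came from the Chat line DW167. The labels state no age, sex or strain and do not say how many animals went into an array. The series text speaks of independent preparations as replicates, but the labels do not tie each array to its own animals. Unless a fit on the 9 arrays alone is named, p-values rest on the spread within groups over all arrays of the series. Most of that spread comes from the 98 arrays that are not compared, and it may be technical in part. Arrays of the same line count as separate samples in these p-values. The small number of compared arrays limits the precision of the differences. Each driver is represented by 1 line. Striatum and basal forebrain of the same line can be set side by side only in the Chat line (2 arrays against 3). In the Drd1 and Drd2 lines, line and region cannot be told apart.

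The striatum is a large forebrain nucleus made mostly of GABAergic medium spiny neurons. Those of the direct pathway carry the dopamine receptor Drd1 and those of the indirect pathway carry Drd2, and both use a cyclic AMP signalling cascade that dopamine controls. The basal forebrain is a mixed territory of septum, diagonal band and pallidal areas. It holds cholinergic, GABAergic and glutamatergic projection neurons, and it borders on the preoptic hypothalamus, whose neurons make many peptide hormones. Whole-tissue RNA adds up all of these cells. In such bulk RNA, fewer cells of a type and less RNA per cell cannot be told apart.

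Levels below are log2 intensities, scaled so that 18 biotinylated control probe sets had the same mean in each group of replicates. A difference is the striatum mean minus the basal forebrain mean. A gene was tested where its mean reached 6 (an intensity of 64) in at least 1 of the tissues, and it was called at an adjusted p under 0.05 together with a change of at least 2-fold. Where the lower tissue lay under 6, its level was set to 6 and the fold is given as "at least".

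The arrays separated by line before they separated by region. On the first principal component, with 60.8% of the variance over 15928 probe sets, the Chat-line striatum arrays (-41.5 and -42.9) lay with the basal forebrain arrays (-52.0, -58.3 and -75.3), and the 4 Drd-line striatum arrays lay apart (51.9 to 97.2). The second component, with 17.0%, separated Chat-line striatum (54.6 and 52.1) from basal forebrain (-44.4, -41.4 and -4.34). Chat-line striatum correlated with basal forebrain at r = 0.931 to 0.965 and with the Drd-line striatum at 0.903 to 0.911. The poly-A spike-in probe sets averaged 6.97 and 6.52 in Chat-line striatum and 8.19 to 8.54 in basal forebrain, but 2.34 in each Drd-line array. The 3′ minus 5′ signal of Actb, a measure of RNA integrity and amplification length, was 2.76 and 2.91 in Chat-line striatum, 4.02 to 4.42 in the Drd lines and 3.86, 3.82 and 3.11 in basal forebrain. Among the striatum arrays that of Gapdh split the same way, at 1.57 and 1.79 in the Chat line and 2.01 to 2.35 in the Drd lines. Basal forebrain, also of the Chat line, read 2.49, 2.44 and 1.88. Basal forebrain 1 and 2 were the most similar pair (r = 0.997, with 24% of these probe sets at identical values). The other pairs within basal forebrain shared 12.2% and 13.4% and the pairs within a striatal line 0.615% to 0.992%, and whether basal forebrain 1 and 2 are separate preparations was not tested. Basal forebrain 3 lay nearer to Chat-line striatum than they did (r = 0.964 and 0.965). Kdm5d and Eif2s3y, genes of the Y chromosome, read 6.19 to 6.99 and 8.86 to 9.90 in striatum against 3.45 to 4.96 and 6.87 to 8.51 in basal forebrain. Xist, expressed from the inactive X chromosome, read 1.63 to 4.95 in striatum and 5.51 to 6.28 in basal forebrain. The part of line, RNA quality and sex in the differences below was not tested beyond the within-line values given.

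**Figure D1:**
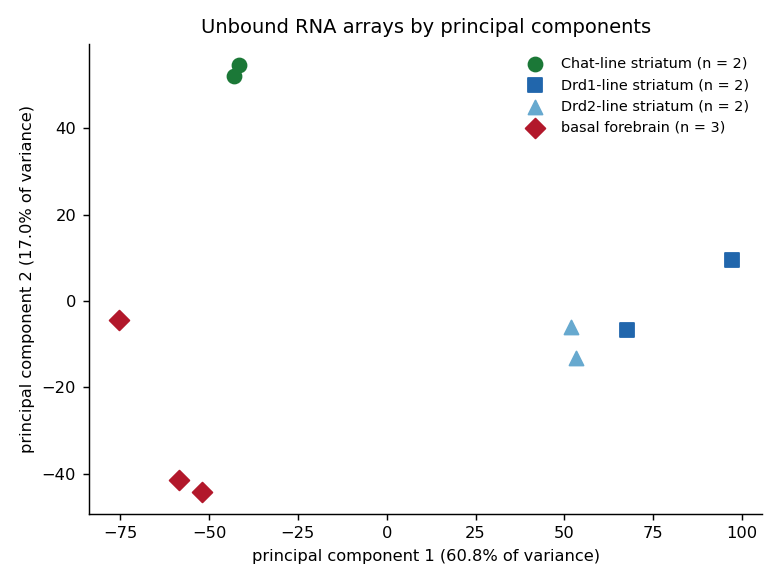
The 9 arrays on the first (horizontal, 60.8% of the variance) and second (vertical, 17.0%) principal component of 15928 probe sets, 1 point per array and 1 colour per set. Chat-line striatum (-41.5 and -42.9) lies on the same side of the first component as basal forebrain, and the Drd-line striatum lies on the other side.

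With the 3 striatal lines pooled, more genes were higher in basal forebrain than in striatum, but not within the Chat line. Of 10053 genes tested, 256 (2.55%) were called higher in striatum and 1345 (13.4%) higher in basal forebrain, and the median difference over all genes was -0.22. When all arrays were instead quantile normalized, which put the median at 0.01, the calls were 609 and 761 of 9418 genes. Called under both scalings were 240 genes higher in striatum (2.39%) and 761 higher in basal forebrain (7.57%). Of these, 181 (1.8%) and 501 (4.98%) also had no overlap between the striatum and the basal forebrain arrays. They are called separated genes below. Without overlap each of the 3 striatal lines must differ in the same direction, so the shared direction is no further check. For comparison, 18.5% of all tested genes had arrays that did not overlap. In the Chat line alone, the one comparison within a line, the balance turned: 1336 genes were called higher in striatum and 455 higher in basal forebrain, or 652 and 602 under quantile normalization. Of the pooled calls, 155 of the genes higher in striatum (1.54% of those tested) and 264 of those higher in basal forebrain (2.63%) were called again there under both scalings. A limma fit on the 9 arrays alone that treats each line and region as a random block called 0 genes in either direction. Its smallest adjusted p was 0.0937, and 78 and 404 genes had an unadjusted p under 0.05 and 2-fold (4.795% of those tested had an unadjusted p under 0.05). The correlation within blocks was 0.82, and all basal forebrain arrays fall in the same block. Its like comparison is a fit on the 9 arrays alone without the block. That fit, also without the spread shared by all arrays of the series, called 151 and 448 genes. Of 112 called genes of the lists and the leading genes that were followed through every setting, 37 lost their call in that fit.

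Of the 3 driver genes, Drd1 and Drd2 were higher in striatum. Drd1, the dopamine receptor of the direct pathway, ran from 12.26 through a median of 12.96 to 13.37 in the 6 striatum arrays and read 11.39, 11.36 and 11.97 in basal forebrain. The lowest striatum array, Drd2-line 2, lay above the highest basal forebrain array, and the mean difference was 1.35 (2.55-fold, adjusted p = 1.6e-06). Drd2, the receptor of the indirect pathway, ran from 9.66 through 10.62 to 11.97 in striatum and read 8.20, 8.08 and 9.13 in basal forebrain. These groups did not overlap either, with a difference of 2.37 (5.15-fold, adjusted p = 1.6e-09). Drd2 was highest in the 2 arrays of the Drd2 line itself (11.97 and 11.77), where the difference from basal forebrain was 3.40 against 1.64 in the Drd1 line and 2.06 in the Chat line. The Drd1 line lay below the Drd2 line by a difference of -1.76 (adjusted p = 0.0021), which held under quantile normalization (-2.10, adjusted p = 8.9e-07). The probe set used for Chat, choline acetyltransferase, was at the array minimum in all 9 arrays and averaged 2.58 and 2.15 in the TRAP RNA of striatal and basal forebrain cholinergic neurons, so it checks nothing. Slc18a3, the vesicular acetylcholine transporter, averaged 13.1 and 11.9 in that TRAP RNA and 1.89 to 4.16 in the 9 unbound arrays.

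Genes of medium spiny neurons were higher in striatum, by moderate amounts. Of 20 listed marker genes 19 were on the array and tested: 10 were called higher in striatum and the other 9 were not called (Arpp21, Adcy5 and Gnal among them reached an adjusted p under 0.05 but not 2-fold). The median difference of the list was 1.01, against -0.22 over all genes tested, of which 2.55% were called higher in striatum. The list's median in each line was 1.31 (Chat), 0.84 (Drd1) and 0.54 (Drd2). Defining markers were therefore present in both tissues, and none was at background in basal forebrain. Ppp1r1b (DARPP-32), the dopamine-regulated phosphatase inhibitor, read 11.56, 11.45 and 12.52 there.

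Scn4b, the beta-4 sodium channel subunit, showed the clearest gap among them. It ran from 13.08 through a median of 13.48 to 14.15 in striatum and read 11.19, 11.30 and 11.38 in basal forebrain. All striatum arrays were higher, and the difference was 2.21 ± 0.24 (SE; 4.63-fold, adjusted p = 1.9e-12). Foxp1, a forkhead transcription factor of striatal projection neurons, ran from 13.08 through 13.26 to 13.72 in striatum and read 11.68, 11.32 and 12.47 in basal forebrain, a difference of 1.51 (adjusted p = 5.1e-05). Rasd2 (Rhes), a small GTPase of these neurons, had the same difference of 1.51 (adjusted p = 9.5e-05). Actn2, an actinin of dendritic spines, differed by 1.63 (adjusted p = 3.9e-06) and Ngef, an ephexin that signals from Eph receptors, by 1.30 (adjusted p = 8.6e-05). Rarb, the retinoic acid receptor beta, ran from 9.50 to 10.59 in striatum and read 9.03 in each basal forebrain array, a difference of 1.17. Rgs9, which shortens dopamine receptor signalling, differed by 1.20 (adjusted p = 0.00081), with no overlap of the arrays.

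For 3 of these markers the call rested on single arrays. Ppp1r1b differed by 1.24 with all arrays and by 1.05 (adjusted p = 0.0667) without basal forebrain 2. Syndig1l, a synaptic membrane protein, differed by 1.57 with all arrays but by 1.23 (adjusted p = 0.0989) without basal forebrain 1 and 1.17 (adjusted p = 0.125) without basal forebrain 2. Ptpn5 (STEP), a striatal tyrosine phosphatase, differed by 1.01, and the value was 0.66 to 0.81 when either Chat-line striatum array or basal forebrain 1 or 2 was left out, which ended the call. In each of the 3 genes basal forebrain 3 was the highest basal forebrain array. Rgs9 and these 3 were also not called in the fit on the 9 arrays alone (adjusted p = 0.0629 for Rgs9), and Rarb and Ptpn5 were not called without further scaling. Among the markers not called, Pde10a, the striatal phosphodiesterase, differed by 0.39, Bcl11b (Ctip2) by 0.40, Pde1b by 0.76 and Meis2 by 0.34.

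Direct- and indirect-pathway genes did not all move together. Of 8 direct-pathway genes tested 3 were called higher in striatum (Drd1, Ebf1 and Eya1), the other 5 were not called, and the median difference was 0.50. Of 5 indirect-pathway genes 3 were called higher (Drd2, Gpr6 and Nt5e) and 2 were not, with a median of 1.44. Of all genes tested, 2.55% were called higher in striatum. The peptide precursors were not called: Tac1 (substance P) differed by -0.25, Pdyn (dynorphin) by -0.45 and Penk (enkephalin) by 0.57. Ebf1, a transcription factor of direct-pathway neurons, ran from 7.24 through 8.28 to 8.91 in striatum and stood at 5.53 in every basal forebrain array, at least 4.40-fold lower (adjusted p = 1.3e-11). The 2 Chat-line arrays, at 7.36 and 7.24, were the lowest of the striatum. Nt5e, the ectonucleotidase that makes adenosine, differed by 1.44, with basal forebrain 3 (7.45) inside the striatal range of 7.10 to 9.20, and it was not called on the 9 arrays alone (adjusted p = 0.143).

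Eya1, a transcription cofactor listed for the direct pathway, followed the line and not the region. It read 12.84 and 12.46 in the Drd1 line, 8.16 and 7.61 in the Chat line, 8.02 and 8.22 in the Drd2 line, and 8.03, 7.87 and 7.87 in basal forebrain. The Drd1 line alone stood out: it lay 4.53 above the Drd2 line (adjusted p = 1e-14), and leaving out either of its arrays ended the call against basal forebrain (0.97 and 1.04, adjusted p = 0.0862 and 0.0812). In TRAP RNA Eya1 averaged 14.3 in Drd1 neurons and 9.01 in Drd2 neurons.

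Gpr6, an orphan receptor coupled to cyclic AMP and enriched in indirect-pathway neurons, ran from 12.27 through a median of 12.76 to 13.27 in striatum. It read 10.95, 10.97 and 11.94 in basal forebrain, below every striatum array, a difference of 1.49 (2.82-fold, adjusted p = 1.9e-06). In TRAP RNA it averaged 14.4 in Drd2 neurons, 11.1 in Drd1 neurons and 7.77 in striatal cholinergic neurons. Its upstream sequence is shown because it holds a full cyclic AMP response element, the site bound by CREB. The 150 bases before the Gpr6 start (RefSeq, GRCm38.p6, chr10:41072291-41072440, minus strand) carry the element TGACGTCA, in capitals, 78 to 71 bases before the start.
Gpr6: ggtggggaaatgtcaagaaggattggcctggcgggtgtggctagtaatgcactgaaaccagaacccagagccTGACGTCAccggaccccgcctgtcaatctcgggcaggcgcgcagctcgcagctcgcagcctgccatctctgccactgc
The element, which reads the same on both strands, was searched in the 250 bases before the start of every gene with a RefSeq sequence. It occurred in 478 of 27025 genes (1.77%), in 262 of the 8183 tested genes with a sequence (3.2%), in 2 of 141 separated genes higher in striatum (1.42%) and in 9 of 408 higher in basal forebrain (2.21%). The match describes these letters only.

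**Figure D2:**
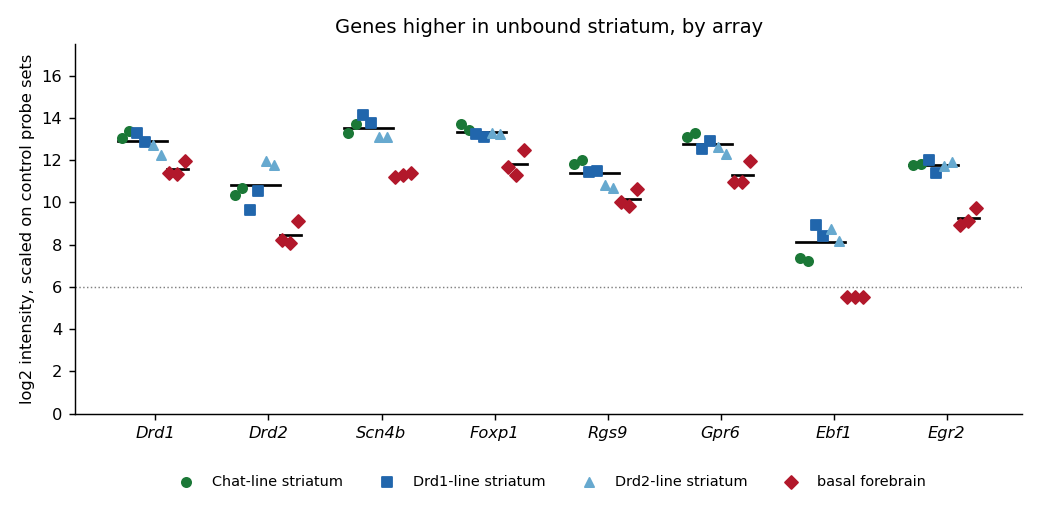
Level (vertical, log2 intensity scaled on control probe sets) of Drd1, Drd2, Scn4b, Foxp1, Rgs9, Gpr6, Ebf1 and Egr2 in Chat-, Drd1- and Drd2-line striatum and in basal forebrain, 1 point per array, with black lines at the group means and a dotted line at 6. In these 8 genes no striatum array lies at or below a basal forebrain array except that the lowest Rgs9 striatum value (10.66) and the highest basal forebrain value (10.66) nearly touch.

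Signalling genes of the cyclic AMP and G-protein pathways were mixed. Of 18 adenylyl cyclases and phosphodiesterases tested, 1 was called higher in striatum and 5 higher in basal forebrain. Of all genes tested, 2.55% and 13.4% were. The median difference of the list was -0.03. The 1 was Pde7b, a cyclic AMP phosphodiesterase, which ran from 12.59 through 13.01 to 13.25 in striatum and read 11.62, 11.40 and 11.83 in basal forebrain, all striatum arrays being higher (difference 1.37, adjusted p = 5.7e-05). Adcy5, the main striatal adenylyl cyclase, differed by 0.59 (adjusted p = 0.039), under 2-fold. Of 14 RGS proteins 3 were called higher in striatum (Rgs9, Rgs4 and Rgs20) and 2 higher in basal forebrain, beside 2.55% and 13.4% of all genes tested. Rgs4 (1.01) and Rgs20 (1.04) lay at the 2-fold line: Rgs4 lost its call without either Chat-line striatum array or without basal forebrain 1 or 2 (0.82 to 0.93), and Rgs20 without Drd1-line striatum 1 or basal forebrain 1 or 2 (0.94 to 0.99). Neither was called without further scaling, nor Rgs4 on the 9 arrays alone.

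Of 16 potassium channel genes tested, 4 were called higher in striatum and 3 higher in basal forebrain, beside 2.55% and 13.4% of all genes tested. Kcna4, which carries A-type current, ran from 10.77 through 11.73 to 12.04 in striatum and read 9.92 in each basal forebrain array. The arrays did not overlap, and the 2 Chat-line arrays were the lowest of the striatum (difference 1.60, 3.02-fold, adjusted p = 1.3e-08; 0.99, under 2-fold, in the Chat line alone). Kcnq3, an M-current subunit, differed by 1.19 and Kcnab1, an accessory beta subunit, by 1.23. Kcnip2, an A-type accessory protein, differed by 1.05 and fell just under 2-fold (0.99 to 1.00) without Chat-line striatum 2, Drd1-line striatum 1 or basal forebrain 1 or 2, and without further scaling. Of 9 GABA-A receptor subunits, 1 was called higher in striatum and 3 higher in basal forebrain, beside the same shares of all genes. The 1 was Gabrd, the extrasynaptic delta subunit (1.25, not called on the 9 arrays alone, adjusted p = 0.14). The 3 were Gabra3, Gabrg1 and Gabrg3. Gabra3 and Gabrg1 were not called in the Chat line alone (-0.74 and -0.92), and Gabra3 and Gabrg3 not on the 9 arrays alone.

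Among immediate early genes, which report recent activity, Egr2 stood apart from the others. It ran from 11.37 through 11.80 to 11.99 in striatum and read 8.92, 9.14 and 9.75 in basal forebrain. All 6 striatum arrays lay close together and above every basal forebrain array, a difference of 2.50 ± 0.30 (SE; 5.66-fold, adjusted p = 4.3e-11). Its values were close in the 3 lines, at 2.53, 2.41 and 2.56 above basal forebrain. In TRAP RNA it averaged 11.4 in Drd1 and 10.0 in Drd2 neurons and 4.03 and 2.15 in striatal and basal forebrain cholinergic neurons, and unbound cortex averaged 11.5. Nr4a1 was called as well (1.28) but not without basal forebrain 1 (0.87, adjusted p = 0.169). Fos (-0.63), Egr1 (0.32), Junb (0.63), Arc (0.42) and Dusp1 (0.66) were not called. Thus 2 of 7 members were called, both higher in striatum, as were 2.55% of all genes. Nr4a1 was also not called on the 9 arrays alone.

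The 15 separated genes with the largest differences toward striatum averaged from 6.24 (Kdm4a) to 10.88 (Gm6556) in striatum. In basal forebrain all but Tcl1b3 and Gm6556 averaged under 6. In order of the difference they were Sema6c, Tcl1b3, Ptprv, Itga9, Gask1b, Gm6556, Kdm4a, Gigyf1, C030013G03Rik, Clspn, Sh3rf2, 1700061N14Rik, Ebf1, Art3 and Sntb2. Tcl1b3, of the Tcl1 family, ran from 9.37 through 9.78 to 11.44 in striatum and stood at 6.03 in each basal forebrain array (15.9-fold, adjusted p = 3.9e-17). It did not follow the region alone in other RNA, with 9.93 in Drd1 TRAP, 9.21 in basal forebrain cholinergic TRAP and 9.60 in unbound brainstem. Itga9, integrin alpha 9, ran from 6.03 through 7.26 to 8.16 in striatum and read 3.39, 3.45 and 3.78 in basal forebrain. Its TRAP levels were 8.31 in Drd1 and 8.54 in Drd2 neurons and 2.58 and 2.16 in the cholinergic neurons. Gask1b (Fam198b), a Golgi-associated protein, ran from 8.12 through 8.76 to 9.44 against 4.88, 6.08 and 5.64, at least 7.001-fold higher in striatum, and Sh3rf2, a ubiquitin ligase, from 7.80 through 8.70 to 8.93 against 5.59, 5.35 and 5.93. Sema6c, a semaphorin, again followed a line: 8.79 and 10.96 in the Drd1 line, 4.76 and 4.70 in the Chat line, 4.16 in both Drd2-line arrays and 2.01 in each basal forebrain array. It lay 5.72 higher in the Drd1 than in the Drd2 line (adjusted p = 2.9e-05) and was not called on the 9 arrays alone (adjusted p = 0.111). Identical values in the 3 basal forebrain arrays, which narrow the spread of a gene, were found in 41 of the 181 separated genes higher in striatum and in 62 of the 501 higher in basal forebrain (22.7% and 12.4%), against 9.31% of all genes tested.

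Hypothalamic neuropeptides were mostly higher in basal forebrain. Of 13 genes of the list that were tested (19 listed, 16 on the array), 11 were called, all higher in basal forebrain (13.4% of all genes were). Of these, 10 were called under both scalings and 9 were separated, and the median difference of the list was -3.28. The list counts Gpx3, a secreted glutathione peroxidase and not a peptide, among its called and separated genes. The list's median was negative in each striatal line: -2.11 in the Chat line, -3.99 in the Drd1 line and -4.13 in the Drd2 line. The 2 genes not called were Sst (-0.41) and Npy (0.00), peptides of interneurons in both tissues.

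Oxt, the oxytocin precursor, ran from 1.91 through a median of 2.75 to 2.82 in the 6 striatum arrays, which is background. It read 7.27, 7.59 and 9.01 in basal forebrain, where every array was far above every striatum array, at least 3.88-fold (difference -5.36, adjusted p = 6.3e-37). Avp, the vasopressin precursor, ran from 2.58 through 3.88 to 5.59 in striatum and read 7.76, 7.86 and 8.64 in basal forebrain, at least 4.25-fold higher there (difference -4.14, adjusted p = 7.3e-25). Both peptides were highest in basal forebrain 3. Neither was above background in unbound cortex, cerebellum, brainstem or spinal cord, where means were 1.91 to 2.46, nor in the TRAP RNA of striatal and basal forebrain cholinergic, Drd1 or Drd2 neurons (2.18 to 3.99). The 2 genes are neighbours that are read toward each other in the magnocellular neurons of the hypothalamus. Their upstream sequences are shown because both differ so far between the tissues. The 150 bases before each start (RefSeq, GRCm38.p6; Oxt chr2:130576019-130576168, plus strand; Avp chr2:130582589-130582738, minus strand) share a longest common stretch, CAGACATAAA, shown in capitals, 31 to 22 bases before the Oxt start and 18 to 9 bases before the Avp start.
Oxt: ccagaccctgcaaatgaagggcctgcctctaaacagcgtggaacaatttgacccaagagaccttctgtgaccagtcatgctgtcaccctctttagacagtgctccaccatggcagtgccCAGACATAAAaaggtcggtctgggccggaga
Avp: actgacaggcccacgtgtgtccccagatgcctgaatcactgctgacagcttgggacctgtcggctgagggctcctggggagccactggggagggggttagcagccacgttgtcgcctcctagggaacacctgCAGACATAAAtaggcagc
The stretch, searched on both strands, occurred in the 250 bases before the start of 18 of 27025 genes (0.0666%) and of 6 of the 8183 tested genes with a sequence. Since it was chosen as what the pair shares, its presence in 2 of 408 separated genes higher in basal forebrain is a description of that pair.

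Otp (orthopedia), the homeodomain factor that specifies oxytocin and vasopressin neurons, gave a difference of the same size. It ran from 2.05 through 2.83 to 3.19 in striatum and read 8.09, 8.45 and 8.08 in basal forebrain, at least 4.61-fold higher (difference -5.44, adjusted p = 7.1e-43). No striatum array came near that level, and the differences in the Chat, Drd1 and Drd2 lines were -5.38, -5.37 and -5.59. Unbound brainstem (8.15) and spinal cord (7.60) also carried Otp. It was the only 1 of 5 tested hypothalamic transcription factors to be called (19 on the array). Sim1, another transcription factor of those neurons, stayed between 1.96 and 3.17 in all 9 arrays. Nkx2-1, which marks the hypothalamus and the pallidum, stayed between 1.64 and 2.55. Between TRAP populations Nkx2-1 differed by 0.785 (medium spiny minus striatal cholinergic) and 0.431 (striatal minus basal forebrain cholinergic). The Chat probe set, at background there, gave the same differences, so absence of Nkx2-1 cannot be read from its probe set.

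Cartpt, the CART peptide precursor, ran from 6.32 through 7.33 to 8.45 in striatum and read 10.74, 10.94 and 12.07 in basal forebrain, 13.7-fold higher (difference -3.77, adjusted p = 4e-17). The groups did not overlap, and basal forebrain 3 was again the highest. Unlike Oxt and Avp, Cartpt was also found in the ribosomes of cholinergic neurons, at 11.2 (striatal) and 11.7 (basal forebrain), against 6.34 in Drd1 and 3.72 in Drd2 TRAP. Its upstream sequence is shown for comparison with Gpr6, since it holds the same cyclic AMP response element in a gene that moved the other way. In the 150 bases before the start (RefSeq, GRCm38.p6, chr13:99900684-99900833, minus strand) the element, in capitals, lies 112 to 105 bases before the start.
Cartpt: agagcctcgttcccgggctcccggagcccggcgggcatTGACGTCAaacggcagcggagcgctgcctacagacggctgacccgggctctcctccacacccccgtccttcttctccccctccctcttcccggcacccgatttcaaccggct

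Gal (galanin) and Gpx3, a secreted glutathione peroxidase, behaved like Cartpt. Gal ran from 4.72 through 5.42 to 5.93 in striatum and read 8.21, 8.21 and 8.80 in basal forebrain (at least 5.30-fold, adjusted p = 7.1e-17), and its level in cholinergic TRAP was 9.95 (striatal) and 10.8 (basal forebrain). Gpx3 ran from 2.70 through 3.41 to 4.92 and read 8.97, 8.95 and 9.53 (at least 8.86-fold, adjusted p = 2.4e-30), with 11.4 in both cholinergic TRAP populations. Neither gene overlapped between the tissues. Nts (neurotensin, -3.28), Crh (corticotropin-releasing hormone, -2.05), Tac2 (neurokinin B, -3.38) and Adcyap1 (PACAP, -4.52) were separated as well, and all 4 kept their calls in the Chat line alone. Pomc (-1.03) and Pmch (melanin-concentrating hormone, -2.43) were called but not stable. Pomc lost its call without either Drd1-line array (-0.998 and -1.02) or without basal forebrain 1 (-0.72) or 2 (-1.06), and Pmch without any of the 4 Drd-line arrays (-1.79 to -2.04) or basal forebrain 2 (-1.56). Neither was called on the 9 arrays alone, and Pomc was not called under quantile normalization. Pmch in fact read 11.07 and 11.91 in Chat-line striatum, above basal forebrain (8.29, 10.57 and 7.67), and 3.23 to 4.49 in the Drd lines.

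**Figure D3:**
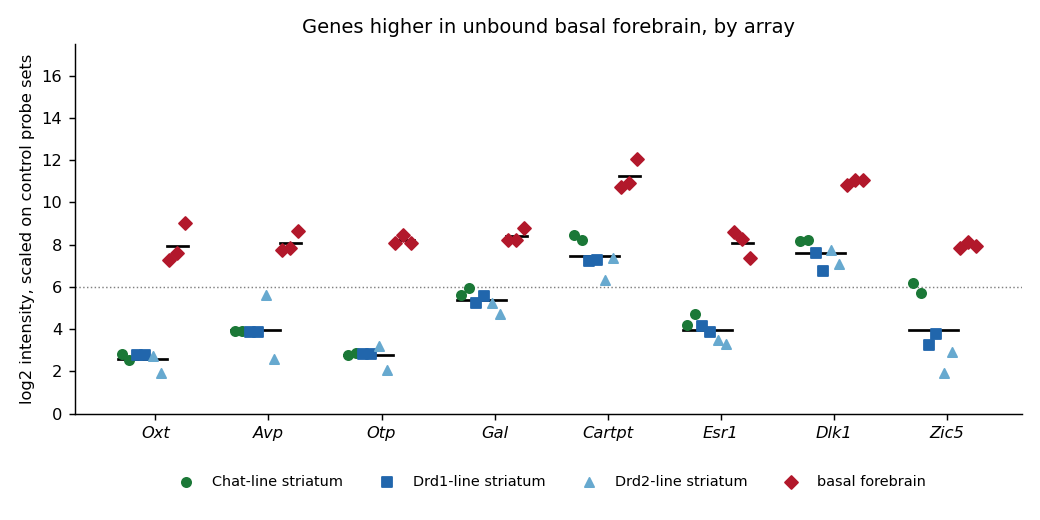
Level (vertical, log2 intensity scaled on control probe sets) of Oxt, Avp, Otp, Gal, Cartpt, Esr1, Dlk1 and Zic5 in Chat-, Drd1- and Drd2-line striatum and in basal forebrain, 1 point per array, black lines at group means and a dotted line at 6. In each gene the 3 basal forebrain arrays lie above all 6 striatum arrays, and for Oxt and Otp all striatum arrays lie at or below 3.19.

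Neuronal genes rich in the hypothalamus followed the peptides. Of 12 tested 10 were called, all higher in basal forebrain (13.4% of all genes were), with a median of -1.46, of -0.70 in the Chat line. Dlk1, an imprinted transmembrane protein of peptide neurons, ran from 6.73 through 7.68 to 8.24 in striatum and read 10.84, 11.05 and 11.05 in basal forebrain, clear of all striatum arrays (10.5-fold, adjusted p = 1e-13). Baiap3, a dense-core vesicle protein, differed by -3.10 (8.56-fold, adjusted p = 1.2e-11) and Zcchc12, a transcriptional coactivator, by -1.38 (adjusted p = 3.9e-10). Resp18, an endocrine secretory protein, was called (-2.36), but it read 11.76 and 12.19 in Chat-line striatum, against 12.03, 12.13 and 12.80 in basal forebrain and 8.51 to 9.83 in the Drd lines, and it was not called in the Chat line alone (-0.34) or on the 9 arrays alone. Magel2, of the Prader-Willi region, stood at 6.66 in each basal forebrain array and at 2.71 to 3.75 in striatum, so its fold was at least 1.58. Esr1, the oestrogen receptor alpha, ran from 3.29 through 4.00 to 4.71 in striatum and read 8.60, 8.25 and 7.37 in basal forebrain, at least 4.21-fold higher with no overlap (adjusted p = 7.2e-30). The other 3 steroid receptors tested, Pgr (0.14), Nr3c1 (0.45) and Nr3c2 (0.34), were not called.

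Transcription factors of the septum and pallidum were mostly higher in basal forebrain. Of 8 tested, 6 were called, all higher there (13.4% of all genes were), with a median of -1.59. Zic5 ran from 1.92 through 3.52 to 6.18 in striatum and read 7.86, 8.12 and 7.95 in basal forebrain, at least 3.93-fold higher without overlap (adjusted p = 3.5e-13), the 2 Chat-line arrays being the highest of the striatum. Gbx1, a homeodomain factor of basal forebrain cholinergic neurons, ran from 3.40 to 6.32 and read 7.08, 7.08 and 6.69 (at least 1.93-fold, adjusted p = 2.5e-06, and 0.0958 on the 9 arrays alone). Its TRAP level was no higher in those neurons, at 4.92, than in striatal cholinergic (5.28), Drd1 (5.71) and Drd2 neurons (6.14). Lhx6, of pallidal interneurons, differed by -1.41 without overlap, but by -0.97 in the Chat line, where it was not called. Lhx8, which specifies cholinergic neurons and averaged 14.4 and 14.6 in their TRAP RNA, differed by only -1.06 and lost its call without any array other than Drd1-line 1 (-0.96 to -1.14) and under quantile normalization. Zic1, which is strong in cholinergic TRAP (14.8 and 15.0), depended on the line: it read 14.74 and 14.38 in Chat-line striatum, the same as in basal forebrain (14.58, 14.69 and 14.38), and 11.42 to 12.06 in the Drd lines. Neither Lhx8 nor Zic1 was called on the 9 arrays alone. Of 8 Dlx and other subpallial factors, Dlx1 (-2.45, adjusted p = 2.1e-09) and Sp8 (-3.07, adjusted p = 2.5e-08) were higher in basal forebrain and Ebf1 in striatum. Of all genes tested, 13.4% and 2.55% were called in these directions. Dlx1 and Sp8 did not overlap between the tissues.

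Interneuron, monoamine and receptor genes gave further calls, most of them toward basal forebrain. Of 9 interneuron genes 5 were called, all higher there (13.4% of all genes were), 2 of them separated. The list depended on the line, however, with medians of 0.43 in the Chat line, -1.26 in the Drd1 line and -2.42 in the Drd2 line. Averaged over its genes it read 10.2 and 9.92 in Chat-line striatum, 7.25 to 7.99 in the Drd lines and 9.64 to 10.1 in basal forebrain. Vip, the vasoactive intestinal peptide, ran from 4.91 through 6.48 to 9.59 in striatum and read 9.75, 10.46 and 9.95 in basal forebrain, so that Chat-line striatum 1 came close to the lowest basal forebrain array (9.76-fold, adjusted p = 1.6e-09). Calb2 (calretinin) ran from 4.08 to 10.09 and read 10.93, 11.10 and 11.41, with the 2 Chat-line arrays highest, and it was not called in the Chat line alone or on the 9 arrays alone. Pvalb (0.72) and Npy were not called. All 4 monoamine genes tested were called higher in basal forebrain (13.4% of all genes were), but only 2 under both scalings, and 1 was separated. Ddc, which decarboxylates DOPA, differed by -2.12 (4.36-fold, adjusted p = 2.7e-09) with no overlap, whereas Th (6.73, 6.73 and 6.19) and Dbh (6.16 in each) stood near the limit of 6 in basal forebrain and Dbh lost its call without either Chat-line striatum array or Drd2-line 1 (-0.92 to -0.97). Under quantile normalization neither Th nor Dbh reached the level for a test. Nr4a2 (-1.83) lost its call without Drd1-line striatum 2 (-1.16, adjusted p = 0.058). Neither Nr4a2 nor Dbh was called on the 9 arrays alone (adjusted p = 0.319 and 0.102). The defining transporters Slc6a3, Slc18a2 and Slc6a4 lay at 1.63 to 3.70 in all 9 arrays. Receptor lists were mixed. Of 6 serotonin receptors 3 were called higher in basal forebrain and 1 in striatum, of 11 ionotropic glutamate receptors 2 were called higher in basal forebrain and 9 not called, and of 4 muscarinic and nicotinic receptors 1 was called higher in basal forebrain, where 13.4% of all genes were. Among these, Htr7 (-2.94, at least 7.45-fold), Chrna4 (-3.05, at least 1.88-fold), Grin3a (-2.43, 5.37-fold), and from the opioid list the peptide Pnoc, nociceptin (-3.43, at least 2.82-fold), were separated and called in the Chat line as well. In the other direction Htr1d was called higher in striatum (1.09), but not without basal forebrain 2 (0.94) or on the 9 arrays alone (adjusted p = 0.0584).

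Meningeal genes were also higher in basal forebrain. Of 10 listed genes, all on the array, 7 reached the level for a test. All 7 were called higher there (13.4% of all genes were), 5 under both scalings and 2 separated. Their median was -2.33, and in the Chat line it was -1.49. Aldh1a2, which makes retinoic acid in the meninges, ran from 3.40 through 5.09 to 5.94 in striatum and read 9.03, 8.96 and 9.04 in basal forebrain, at least 8.06-fold higher (adjusted p = 3e-16). Ogn (osteoglycin) ran from 2.10 through 2.93 to 6.71 and read 8.60, 8.30 and 8.52, the 2 Chat-line striatum arrays lying between the groups. Igf2, also made by choroid plexus, was reversed in the Chat line, at 10.89 and 11.29 in striatum against 9.53, 9.38 and 9.89, and 4.53 to 6.66 in the Drd lines. Averaged over the 7 tested genes, the meningeal markers read 4.53 to 7.69 in striatum and 8.63 to 8.90 in basal forebrain. Listed genes below the level for a test in both tissues are not in this average. Over its 13 tested genes the neuropeptide list, which moved the same way, averaged 5.59 to 7.62 and 9.18 to 9.69. The part of neighbouring tissue in either list was not tested. Igf2 was not called on the 9 arrays alone.

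The 15 separated genes with the largest differences toward basal forebrain were, in order, Irs4, Fmod, Gh, Otp, Gpx3, Oxt, Eomes, Ppp1r17, Foxd1, Tmie, B3galt6, Ogn, Sln, Adcyap1 and Asb4. Irs4, an insulin receptor substrate of the hypothalamus, ran from 2.67 through 4.58 to 6.98 in striatum and read 10.59, 10.81 and 10.30 in basal forebrain, at least 23.7-fold higher and without overlap (adjusted p = 2.1e-19). In TRAP RNA it averaged 8.54 in basal forebrain cholinergic neurons and 2.88 in striatal ones. Fmod (fibromodulin) ran from 1.63 to 8.73, with the 2 Chat-line arrays highest, and read 10.66, 10.66 and 10.69. Gh, growth hormone of the pituitary, was at background in unbound striatum (1.63 to 2.54) and read 8.76, 7.84 and 6.78 in basal forebrain. It averaged 9.74 in unbound brainstem. Cholinergic TRAP RNA had the opposite order for Gh, with 7.06 on average in striatal and 3.39 in basal forebrain neurons. Eomes (Tbr2) and Ppp1r17 were likewise at background in striatum, at most 2.54 and 2.74. Eomes read 7.58, 7.58 and 6.77 and Ppp1r17 7.42, 7.55 and 6.66 in basal forebrain, and both were high in unbound cerebellum (11.28 and 14.02). Sln, sarcolipin, stood at 1.70 to 3.70 in striatum and 6.87 to 7.24 in basal forebrain, and at 10.3 and 9.41 in striatal and basal forebrain cholinergic TRAP. Asb4, another gene of hypothalamic neurons, stood at 1.78 to 2.87 against 6.62 to 7.03.

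Thalamic, cortical, choroid plexus and myelin genes depended on the striatal line. Of 10 tested thalamic genes 1 was called higher in striatum and 5 higher in basal forebrain, beside 2.55% and 13.4% of all genes. However, the list's median was 2.25 in the Chat line, -2.70 in the Drd1 line and -3.40 in the Drd2 line. Slc17a6 (VGLUT2), the vesicular glutamate transporter of thalamus and hypothalamus, read 11.63 and 12.04 in Chat-line striatum, 3.38 to 5.52 in the Drd lines and 10.94, 11.06 and 11.47 in basal forebrain. The Chat-line striatum was thus above basal forebrain and the Drd lines at background, and the pooled difference of -4.21 describes neither. Prkcd, protein kinase C delta of thalamic relay neurons, read 11.07 and 11.25, 3.77 to 4.66, and 7.61, 7.41 and 9.64 in the same order. Its pooled call (-1.68) was lost without any of the 4 Drd-line arrays or basal forebrain 1 or 3 (-0.97 to -1.99). Tnnt1, a troponin expressed in thalamus, read 12.29 and 12.45, 6.23 to 7.19, and 9.44, 9.21 and 10.97, with a pooled difference of -1.21 that was not called. Synpo2, an actin-bundling protein, was the 1 thalamic gene higher in striatum, from 7.77 through 8.18 to 10.98, with basal forebrain at 5.68, 5.69 and 7.84, and its largest difference, 4.43, was in the Chat line. Slc17a6, Prkcd and Synpo2 were not called on the 9 arrays alone, nor Prkcd under quantile normalization. Averaged over the 10 genes, the thalamic list read 10.3 and 10.6 in Chat-line striatum, 5.47 to 6.06 in the Drd lines and 8.24 to 9.37 in basal forebrain.

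Cortical genes showed the same split at lower levels. Of 11 tested, 5 were called, all higher in basal forebrain (13.4% of all genes were), with line medians of 0.58, -1.70 and -1.98. Slc17a7 (VGLUT1), the cortical glutamate transporter, was low throughout, at 8.41 and 6.62 in Chat-line striatum, 2.26 to 3.70 in the Drd lines and 5.76, 6.09 and 6.80 in basal forebrain, and its call (-1.71) was lost without Drd1-line 2 or either Drd2-line array (-1.26 to -1.45). Tbr1, a cortical transcription factor, read 7.83, 8.33 and 8.33 in basal forebrain and from 2.35 through 4.79 to 7.99 in striatum, where Chat-line 1 lay inside the basal forebrain range. Of 7 choroid plexus and ependymal genes tested, 5 were called higher in basal forebrain (13.4% of all genes were), 1 of them separated. The line medians were 0.28, -3.19 and -3.05. Ttr (transthyretin), which choroid plexus makes in large amounts, read 16.46 and 16.45 in Chat-line striatum, 7.14 to 8.31 in the Drd lines and 14.15, 15.55 and 14.16 in basal forebrain. Its pooled difference of -3.81 lost its call without any array other than the 2 of Chat-line striatum (-3.08 to -4.04). Folr1, Kcne2 and Kl, also of choroid plexus, lay under the level for the pooled test but were called higher in striatum in the Chat line (5.01, 5.41 and 4.57), with basal forebrain at 2.06 to 4.02. Slc17a7, Tbr1 and Ttr were not called on the 9 arrays alone.

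**Figure D4:**
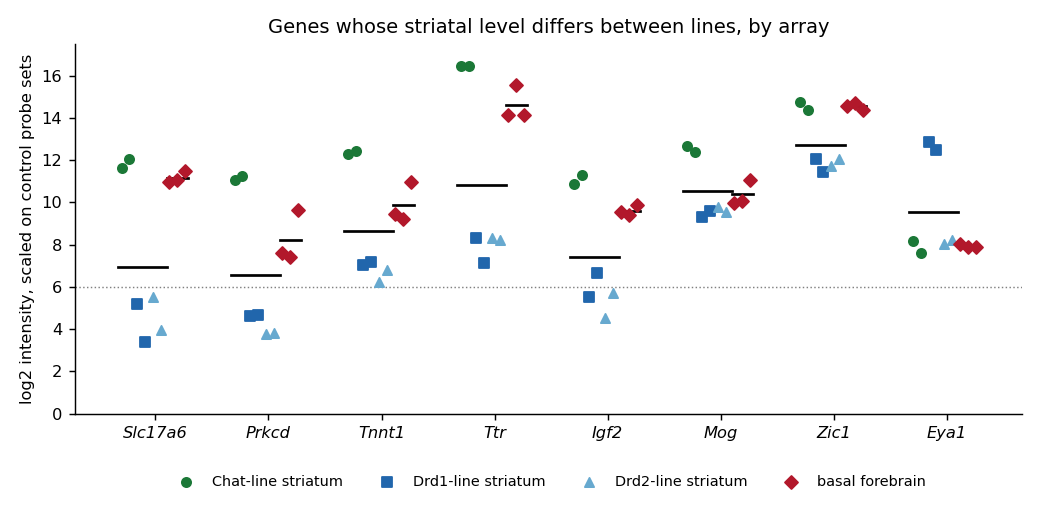
Level (vertical, log2 intensity scaled on control probe sets) of Slc17a6, Prkcd, Tnnt1, Ttr, Igf2, Mog, Zic1 and Eya1 in Chat-, Drd1- and Drd2-line striatum and in basal forebrain, 1 point per array, black lines at group means and a dotted line at 6. In the first 6 genes both Chat-line striatum arrays lie above all 4 Drd-line arrays, Zic1 in Chat-line striatum lies at the basal forebrain level, and Eya1 is high in the Drd1 line alone.

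Oligodendrocyte and microglial genes were not called, and a few astrocyte and general neuronal genes were called higher in basal forebrain. None of 13 myelin genes, 8 oligodendrocyte progenitor genes or 6 microglial genes was called by limma in either direction, although the myelin list had a median of 1.98 in the Chat line against -0.48 and -0.71 in the Drd lines. Of those 27 genes, 4 reached an unadjusted p under 0.05 (Cldn11, Opalin, Gpr17 and Cx3cr1). Mog, a myelin surface protein, read 12.67 and 12.37 in Chat-line striatum, 9.32 to 9.80 in the Drd lines and 9.99, 10.07 and 11.07 in basal forebrain. Of 15 astrocyte genes 3 were called higher in basal forebrain (13.4% of all genes were), among them Gfap (-1.90), which was not called in the Chat line alone. Of 11 pan-neuronal genes Syp (synaptophysin, -1.59) and Stmn2 (stathmin 2, -1.53) were called higher in basal forebrain, and both stood at or above the basal forebrain mean in Chat-line striatum (0.35 and 0.29 higher). Gfap, Syp and Stmn2 were not called on the 9 arrays alone. Snap25, of the presynaptic fusion complex, differed by -0.28. The GABA genes Gad1 (-0.14), Gad2 (-0.80), Slc32a1 (0.29) and Abat (-0.36) were not called, so the enzymes and transporter shared by GABAergic neurons of both tissues differed by under 2-fold.

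**Figure D5:**
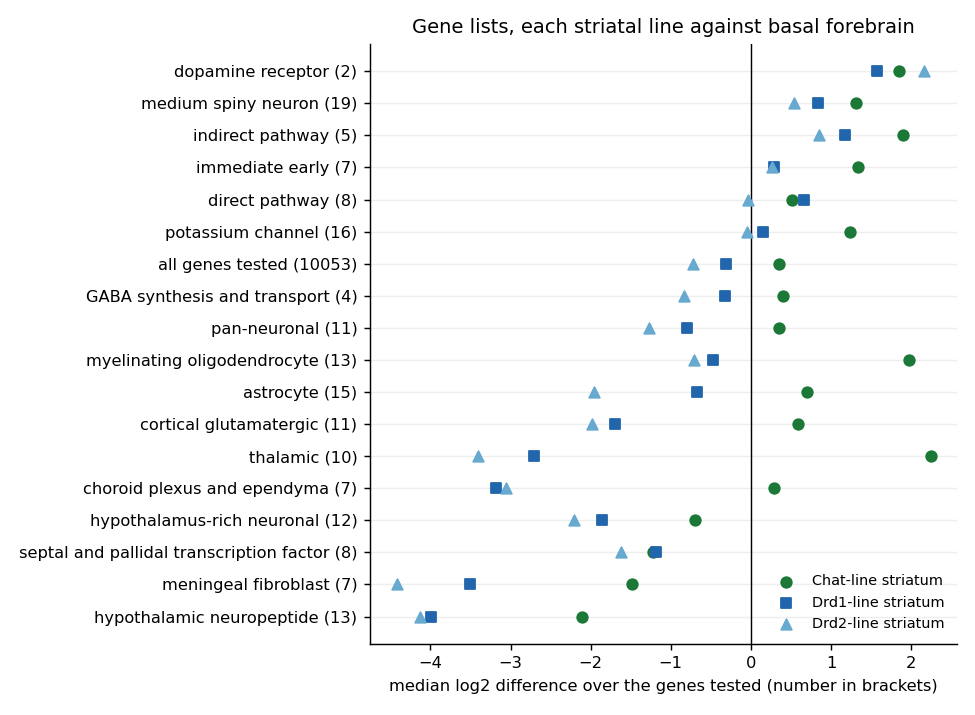
Median log2 difference from basal forebrain (horizontal) over the tested genes of each list (vertical, number of genes in brackets) for Chat-line (circles), Drd1-line (squares) and Drd2-line (triangles) striatum. Medium spiny neuron and dopamine receptor genes lie to the right of 0 and hypothalamic neuropeptides to the left in all 3 lines, while thalamic (2.25, -2.70 and -3.40) and myelin genes lie on opposite sides in the Chat and Drd lines.

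The 3 striatal lines were also compared with one another, all of them being labelled striatum or corpus striatum. Under both scalings 1196 of 9953 genes (12%) differed between the Chat and the Drd1 line, 1053 of them higher in the Chat line, and 1152 of 9871 (11.7%) differed between the Chat and the Drd2 line, 1096 higher in the Chat line. The Drd1 and Drd2 lines differed in 101 of 9232 genes (1.09%), of which 85 were higher in the Drd1 line. The counts and their direction depend on the scaling. Under control-probe scaling alone, 3041 genes were higher in the Chat and 151 in the Drd1 line, 5152 in the Chat and 56 in the Drd2 line, and, between the Drd lines, 571 in Drd1 and 16 in Drd2, with median differences over all genes of 0.62, 1.04 and 0.41. Under quantile normalization the directions were nearer to balance, at 1053 and 796, 1096 and 881, and 85 and 81. Slc17a6 was 7.56 higher in the Chat than in the Drd1 line (adjusted p = 4.3e-27), Ttr 8.74 higher (adjusted p = 5.4e-05) and Mog 3.05 higher (adjusted p = 8.5e-10). Drd1 did not pass the test between the Chat and Drd1 lines (0.14, adjusted p = 0.75).

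TRAP RNA, measured on other arrays, placed the genes higher in striatum in medium spiny neurons more often than in cholinergic neurons. Of the 170 separated genes higher in striatum that were expressed in one of these TRAP populations, 157 (92.4%) were higher in the mean of Drd1 and Drd2 TRAP than in striatal cholinergic TRAP, with a median difference of 3.61. Over all tested genes the share was 63.2% (5977 of 9453) with a median of 0.57, and over the separated genes higher in basal forebrain it was 38.3% (155 of 405) with a median of -0.62. The difference between striatal and basal forebrain cholinergic TRAP did not track the tissue difference closely: across 8506 genes, which are not independent replicates, r was 0.15 and Spearman's rho 0.08. Of the separated genes expressed in cholinergic TRAP, 75.8% (striatum) and 54.5% (basal forebrain) were higher in the striatal cholinergic neurons, against 72.2% of all genes tested.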

How the data were processed

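RNA was extracted with Trizol, treated with DNase and cleaned on RNeasy columns, then amplified in 2 cycles from 15 ng and labelled with biotin, per the labels' protocols. The authors deposited linear intensities, made with GCRMA within groups of replicates, per the series text; its version is not given in the sources used here. The lowest deposited intensity was 4.50 in all 6 striatum arrays and 4.40 in basal forebrain, and 27.3% to 32.1% of an array's values lay at it.

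Intensities were floored at 1, turned into log2 values and scaled per group on 18 biotinylated control probe sets, as the series text recommends. Of 45101 probe sets 34945 carry 1 gene symbol in the platform annotation, 932 several and 9224 none. This gave 18193 genes; for the 9010 with several probe sets, the one brightest on average was kept. limma 3.58.1 in R 4.3.3 was fitted to every array of the series, giving each TRAP population and each unbound tissue its own coefficient, with trended eBayes and Benjamini-Hochberg adjustment. The scripts were tested on simulated data. Calls, lists and separated genes follow the rules in the report. Named genes were the 3 drivers, members of the lists and the 15 separated genes per direction with the largest differences. Kdm5d, Eif2s3y, Xist, Actb and Gapdh fall outside this rule and were added as checks after their values were seen. The members and lists were chosen with earlier results of these data known. Upstream sequences came from RefSeq (GRCm38.p6).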

Additional observations from a re-analysis of the deposited data

Results flagged for a closer look

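In the 6 striatum arrays 4 of 140 genes screened had 1 array beyond Dixon's critical value for 6 samples, which chance alone passes in about 1 of 20 groups. Rarb read 9.50 in Chat-line striatum 1, with the nearest other array at 10.2. Bcl11b read 14.40 in Drd1-line striatum 1, with the nearest at 14.002. Drd2-line striatum 2 was low for Oxt (1.91) and Otp (2.05), which stood at 2.54 to 2.82 and 2.79 to 3.19 in the other striatum arrays.

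In 19 of the 140 named genes screened, the Chat-line striatum differed from basal forebrain in the opposite direction to both Drd lines. In these genes the Chat line also differed from each Drd line in the limma contrasts under both scalings. The same count over all genes tested is not given. The Chat line minus Drd1 line difference was 8.74 for Ttr, 7.56 for Slc17a6, 7.14 for Pmch, 6.51 for Prkcd, 6.37 for Ramp3, 5.25 for Tnnt1, 4.995 for Igf2, 4.62 for Tcf7l2 and 4.05 for Slc17a7. It was 3.05 for Mog, 2.86 for Mal, 2.83 for Zic1, 2.64 for Aqp4, 2.595 for Rora, 2.51 for Syp, 2.49 for Sst, 2.44 for Ache, 2.40 for Pvalb and 2.125 for Stmn2. Between the Drd1 and Drd2 lines (Drd1 minus Drd2) the difference was -1.76 for Drd2, 4.53 for Eya1 and 5.72 for Sema6c.

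The poly-A spike-in probe sets, which enter no comparison, averaged 6.74 in Chat-line striatum and 8.40 in basal forebrain, above the 2.34 of the Drd-line arrays.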

How the results depend on the processing

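Counts of called genes are given as higher in striatum and higher in basal forebrain, 256 and 1345 as reported. They were 158 and 1858 without further scaling, 609 and 761 with quantile normalization (761 higher in basal forebrain also when both scalings were required), 619 and 2039 without the expression minimum, 149 and 661 with a minimum of 8, 168 in striatum with the mean of all probe sets, and 59 and 426 when limma tested against a 2-fold bound. They were 151 and 448 on the 9 arrays alone, 1336 and 455 in the Chat line alone (652 and 602 there with quantile normalization, an alternative chosen after seeing the data), 431 in striatum in the Drd1 line and 163 and 3572 in the Drd2 line. On the 9 arrays alone with line and region as a random block, limma called 0 and 0, with 78 and 404 at an unadjusted p under 0.05 and 2-fold. Leaving out each array in turn gave 210 to 360 and 1099 to 1799. Genes differing between lines numbered 1849 (Chat and Drd1, quantile normalization), 2122 and 1977 (Chat and Drd2, without further scaling and quantile normalization), and 166 and 187 (Drd1 and Drd2, quantile normalization and a minimum of 8).

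Same-numbered arrays did not deviate together (r = -0.09 to -0.001), so the numbers do not pair them. A fit on the 9 arrays alone with the replicate block called 43 and 83 genes, against 151 and 448 without it.

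In the Chat line alone these differences turned, with the value under quantile normalization second: Eya1 -0.0403 and -0.36, Pmch 2.65 and 2.42, Igf2 1.49 and 1.17, Slc17a6 0.68 and 0.27, Prkcd 2.945 and 2.80, Ramp3 3.72 and 3.805, Tcf7l2 2.02 and 1.84, Tnnt1 2.50 and 2.19, Slc17a7 1.30 and 1.35, Ttr 1.83 and 1.46. Under control-probe scaling only, Zic1 (0.0139), Syp (0.35), Stmn2 (0.29) and Aqp4 (1.10) turned too. The cause of these shifts was not tested. With 2 arrays per line and many values at the GCRMA minimum, genes near a level of 6 have only a bound on the lower side.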
